A study of Homo sapiens with 4 samples.

Results

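The genes described here are the 5 NF-κB subunits NFKB1, NFKB2, REL, RELA and RELB and 5 genes grouped as their feedback inhibitors. The latter are NFKBIA, NFKBIB, NFKBIE, NFKBIZ and TNFAIP3. All 10 genes were taken by Ensembl identifier from the table of gene values, and all were among the 20323 genes listed and the 11810 tested. The values come from NK-92, a human natural killer lymphoma line kept in medium with 100 IU/ml IL-2. A scrambled hairpin was delivered by lentivirus to give NK scramble cells, and a hairpin against ADAR1, an RNA editing enzyme, to give NK shADAR1 cells, with 2 libraries of poly(A)-selected RNA in each group. All 4 libraries therefore come from 1 parental, IL-2 dependent line. The groups were transduced with different hairpins, so a difference between hairpins and one between transduced cultures cannot be told apart. The numbers 1 and 2 in the labels of the knockdown libraries were read as replicates of 1 hairpin, since the study names a single hairpin for its RNA sequencing although 2 were used elsewhere. The question put to these genes was whether their mRNA levels differed between NK shADAR1 and NK scramble cells.

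NF-κB is a family of dimeric transcription factors. In resting cells IκB proteins hold the dimers in the cytoplasm, and signals from receptors of the TNF, Toll-like and antigen receptor families lead to degradation of IκB or to processing of the NFKB2 precursor, which frees dimers to enter the nucleus. Several of the target genes encode subunits and inhibitors of the pathway itself, so that activity is followed by new inhibitor. In natural killer cells the family takes part in cytokine production and survival.

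The κB consensus, a motif of 10 bases that the dimers bind, was looked for on both strands of the 250 bases before each transcript start in the RefSeq promoter table (GRCh38.p14). Of the 10 genes 8 were in the table, and RELB and NFKBIE were not. A match stood before at least 1 start of 7 of the 8 genes and in 9 of their 14 windows, against 9.96% of all 35116 windows and 11.8% of all 27305 genes. RELA had none, which says only that these letters are not in its windows. The stretches below hold 8 of the places with a match, because they are the letters these genes share in front of their starts. Each runs in the direction of the gene over 30 bases, and capitals mark the match or matches.
NFKB1: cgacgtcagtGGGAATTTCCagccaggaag
NFKB2, middle start: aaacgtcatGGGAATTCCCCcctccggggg
NFKB2, inner start: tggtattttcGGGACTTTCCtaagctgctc
REL: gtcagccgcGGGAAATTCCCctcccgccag
NFKBIA: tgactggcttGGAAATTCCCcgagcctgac
NFKBIB: ggcgtggtgGGGAATTTCCCgcagggcgga
NFKBIZ: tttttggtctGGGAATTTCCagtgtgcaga
TNFAIP3: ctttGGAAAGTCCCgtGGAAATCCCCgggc
Where 11 capitals stand together, 2 matches overlap by all but 1 base. The NFKB1 stretch (chr4:102501300-102501329, plus strand) begins its match 49 bases before the start and lies in an exon of the neighbouring gene AF213884.3 in GENCODE 29. The stretches of NFKB2 (chr10:102394462-102394491 and chr10:102395674-102395703, plus strand), REL (chr2:60881518-60881547, plus strand) and TNFAIP3 (chr6:137867188-137867217, plus strand) lie in exons of those genes, since other transcripts start further upstream. The NFKBIB stretch (chr19:38899932-38899961, plus strand) lies in an intron of the gene. The stretches of NFKBIA (chr14:35404811-35404840, minus strand) and NFKBIZ (chr3:101827757-101827786, plus strand) lie outside annotated genes, with matches beginning 81 and 223 bases before the start. A match is a description of the sequence, and binding was not measured in these libraries.

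Of the 10 genes, 9 had lower values in NK shADAR1 than in NK scramble cells and REL had a higher value, against 50% of all tested genes with a log2 fold change below 0. The median log2 fold change of the 10 genes was -0.34, or 78.9% of the NK scramble level, beside 0.00 for all tested genes. It was -0.28 for the subunits and -0.37 for the inhibitors. With edgeR's quasi-likelihood test and Benjamini-Hochberg adjustment over all tested genes, 0 of the 10 passed an adjusted p of 0.05 with a fold change of 1.5, as did 0% of the 11810 genes, and the adjusted p of each of the 10 was 1.00. The adjusted p of each was also 1.00 with DESeq2. At an unadjusted p under 0.05, edgeR found NFKB2 and RELB lower, 2 of the 10, against 0.779% of tested genes that were lower by that criterion. Over all tested genes, in either direction, 293 had such a p with edgeR and 289 with DESeq2. Both NK shADAR1 libraries lay below both NK scramble libraries for 4 of the 10 genes, NFKB2, RELB, NFKBIE and NFKBIZ, against 12.6% of tested genes.

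The plot of each gene by library shows the levels behind these counts, in CPM, counts scaled to a common library size after TMM normalization.

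**Figure D1:**
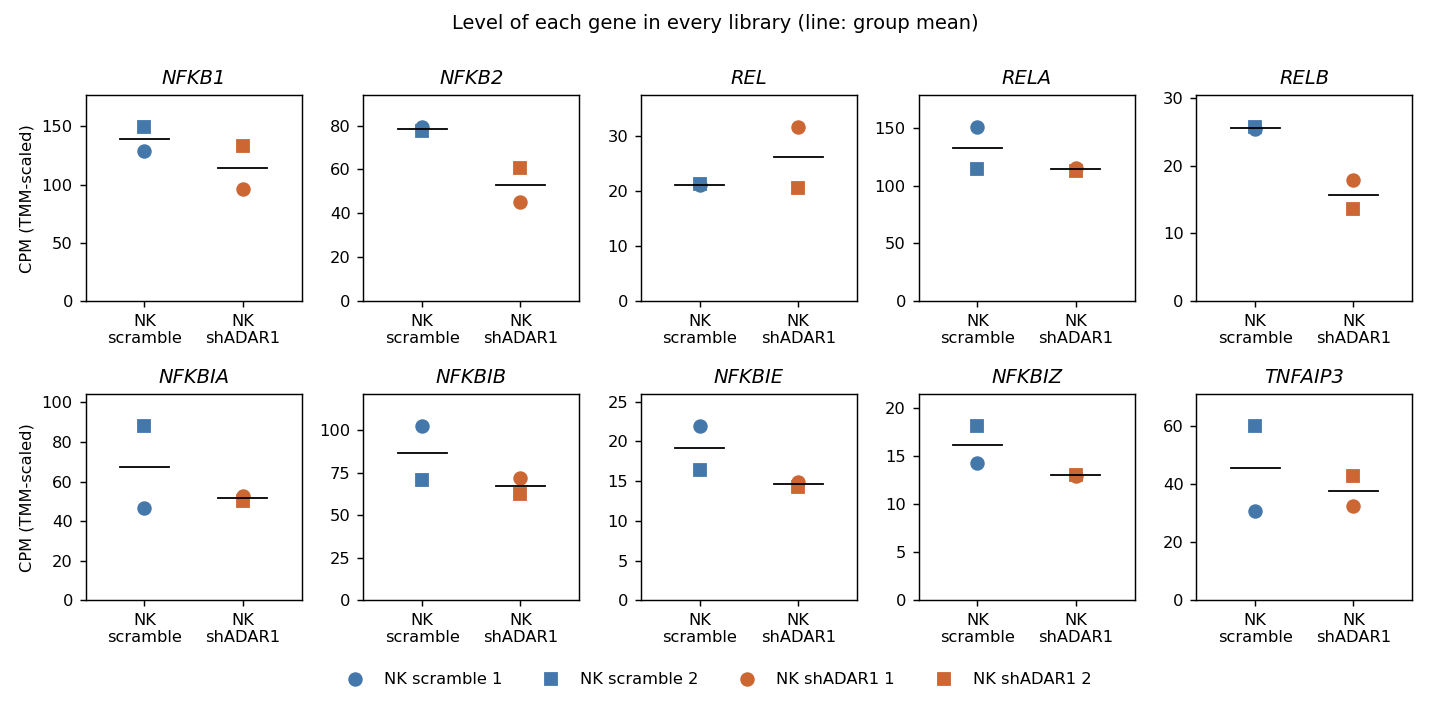
CPM (y axis, linear from 0) of the 10 genes in the 2 NK scramble and 2 NK shADAR1 libraries (x axis), with circles for replicate 1, squares for replicate 2 and a line at each group mean. RELB lies at 25.5 and 25.8 CPM in NK scramble replicates, against 17.8 and 13.7 CPM in NK shADAR1 replicates, whereas NFKBIA ranges from 46.6 to 88.2 CPM within NK scramble.

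RELB and NFKB2 encode the partners of the non-canonical dimer, in which NFKB2 supplies a precursor that is cut to its active form. RELB was at 25.5 and 25.8 CPM in NK scramble replicates, against 17.8 and 13.7 CPM in NK shADAR1 replicates. The NK scramble libraries were nearly equal, and both NK shADAR1 libraries lay below them. Its log2 fold change was -0.70 ± 0.22 (SE, n = 2 per group), with a 95% interval of -1.19 to -0.21, and it ranked 39 of the 11810 genes by p. NFKB2 was at 79.6 and 77.7 CPM in NK scramble replicates, against 45.1 and 60.9 CPM in NK shADAR1 replicates. Its groups did not overlap either, and NK shADAR1 replicate 1 was the lower of its group, whereas replicate 2 was the lower for RELB. The log2 fold change of NFKB2 was -0.57 ± 0.21 (SE, n = 2 per group), with a 95% interval of -1.05 to -0.094. With 1 library left out, RELB had an unadjusted p of 0.05 or more without NK shADAR1 replicate 2, at a log2 fold change of -0.52. NFKB2 had one without NK shADAR1 replicate 1, at -0.37, and without NK scramble replicate 1, where its log2 fold change of -0.55 was close to that of all 4 libraries. RELB was the only one of the 10 genes with a fall in its fitted value past 1.5-fold.

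NFKB1 and RELA encode the subunits of the most common canonical dimer, with NFKB1 again made as a precursor. NFKB1 was at 129 and 150 CPM in NK scramble replicates, against 96.1 and 133 CPM in NK shADAR1 replicates. NK shADAR1 replicate 2 lay between the NK scramble libraries, so the groups overlapped. Its log2 fold change was -0.28 ± 0.22 (SE, n = 2 per group; 95% interval -0.77 to 0.20). It was -0.067 without NK shADAR1 replicate 1 and -0.54 without NK shADAR1 replicate 2. RELA was at 151 and 115 CPM in NK scramble replicates, against 116 and 113 CPM in NK shADAR1 replicates. A single library, NK scramble replicate 1, stood above the other 3, which lay together, and the log2 fold change of -0.22 ± 0.21 (SE; 95% interval -0.68 to 0.24) became -0.011 without it. REL encodes c-Rel, the subunit most tied to activated lymphocytes, and was at 21.1 and 21.3 CPM in NK scramble replicates, against 31.8 and 20.5 CPM in NK shADAR1 replicates. Here NK shADAR1 replicate 1 stood above the other 3 libraries and replicate 2 lay below them. The log2 fold change of REL was 0.30 ± 0.24 (SE; 95% interval -0.24 to 0.84), and it was -0.045 without NK shADAR1 replicate 1.

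NFKBIA, NFKBIB and NFKBIE encode IκBα, IκBβ and IκBε, which hold dimers in the cytoplasm. NFKBIA was at 46.6 and 88.2 CPM in NK scramble replicates, against 52.6 and 50.3 CPM in NK shADAR1 replicates. The NK shADAR1 libraries were close together and lay between the NK scramble libraries. The log2 fold change of -0.39 ± 0.28 (SE, n = 2 per group; 95% interval -1.01 to 0.23) turned to 0.14 without NK scramble replicate 2. NFKBIB was at 103 and 71.0 CPM in NK scramble replicates, against 72.0 and 62.6 CPM in NK shADAR1 replicates. The groups overlapped only between NK scramble replicate 2 and NK shADAR1 replicate 1, and the log2 fold change was -0.37 ± 0.23 (SE; 95% interval -0.87 to 0.14). NFKBIE was at 22.0 and 16.4 CPM in NK scramble replicates, against 14.8 and 14.3 CPM in NK shADAR1 replicates. The groups did not overlap, with NK scramble replicate 1 the highest, and the log2 fold change was -0.39 ± 0.23 (SE; 95% interval -0.90 to 0.11). Without NK scramble replicate 1 the values were -0.079 for NFKBIB and -0.17 for NFKBIE.

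NFKBIZ encodes IκBζ, a nuclear member of the IκB family that modulates transcription of selected targets, and TNFAIP3 encodes A20, a ubiquitin-editing enzyme that stops signaling upstream of the IκB kinases. NFKBIZ was at 14.2 and 18.1 CPM in NK scramble replicates, against 13.0 and 13.0 CPM in NK shADAR1 replicates. The NK shADAR1 libraries were equal to 3 digits and lay below both NK scramble libraries, and the log2 fold change was -0.32 ± 0.23 (SE, n = 2 per group; 95% interval -0.82 to 0.19). It was -0.14 without NK scramble replicate 2. TNFAIP3 was at 30.8 and 60.1 CPM in NK scramble replicates, against 32.5 and 42.7 CPM in NK shADAR1 replicates. As for NFKBIA, the NK shADAR1 libraries lay between the NK scramble libraries. The log2 fold change of TNFAIP3 was -0.27 ± 0.30 (SE; 95% interval -0.93 to 0.39), and it was 0.28 without NK scramble replicate 2.

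The 95% interval of the log2 fold change covered 0 for 8 of the 10 genes and lay below 0 for NFKB2 and RELB, before adjustment for the number of genes tested. It reached a 1.5-fold fall for 9 genes and a 1.5-fold rise for 1, REL. Lack of a call therefore does not show equal levels. The plot of fold changes sets these intervals beside the values with each library left out.

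**Figure D2:**
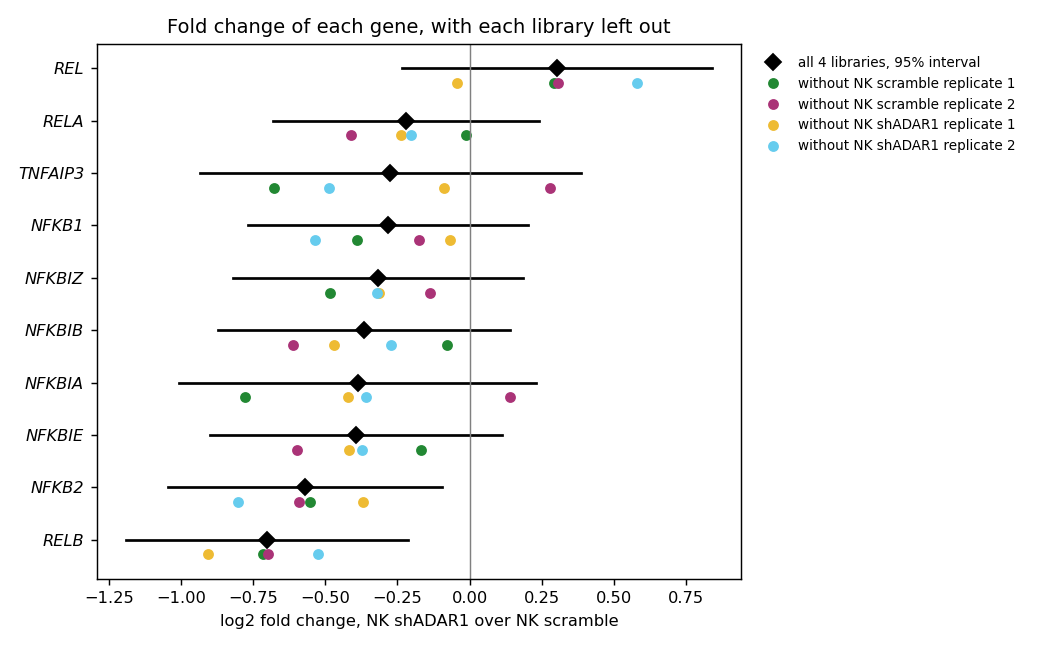
Log2 fold change of NK shADAR1 over NK scramble (x axis) for each gene (y axis), with black diamonds and 95% intervals for all 4 libraries and coloured points for fits without 1 library. The intervals of RELB (-1.19 to -0.21) and NFKB2 (-1.05 to -0.094) lie below 0, and points cross 0 for REL, NFKBIA and TNFAIP3.

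The difference between replicates of the same group was larger than the difference between groups for 8 of the 10 genes. The NK scramble pair differed by more than the fold change for 6 genes, and the NK shADAR1 pair for 3. Neither pair did for NFKB2 and RELB, 2 of the 10, and the same held for 14.8% of all tested genes. The median size of the log2 difference between NK scramble replicates was 0.37 for the 10 genes and 0.26 for all tested genes, and between NK shADAR1 replicates it was 0.29 and 0.27. The widest gaps were those of TNFAIP3 and NFKBIA, which were higher in NK scramble replicate 2 than in replicate 1 by 0.96 and 0.92 on the log2 scale. By contrast RELA, NFKBIB and NFKBIE were lower in that library, by -0.40, -0.53 and -0.43.

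**Figure D3:**
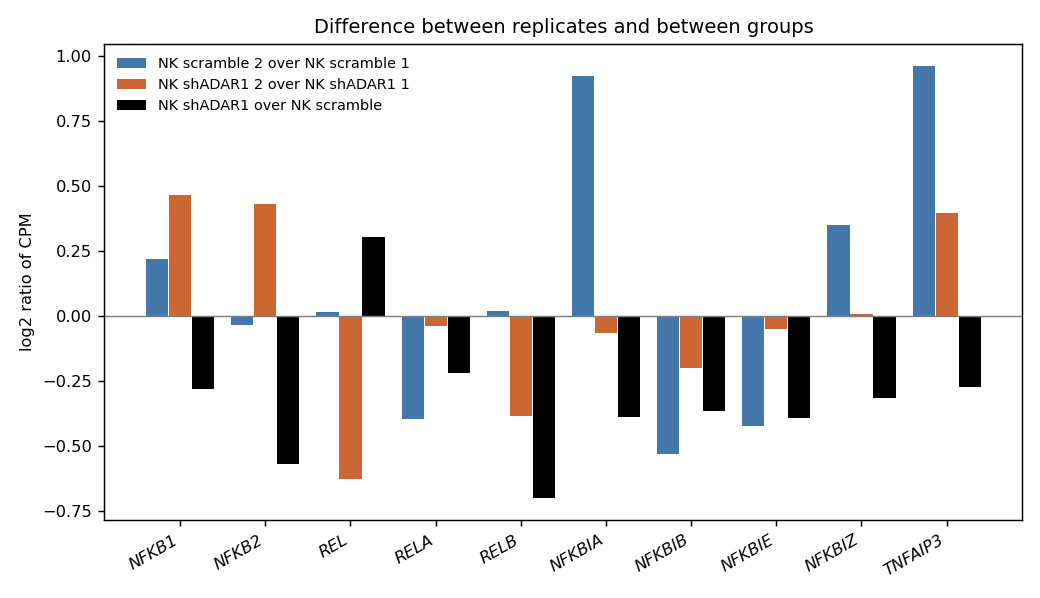
Log2 ratio of CPM (y axis) for each gene (x axis) between the NK scramble replicates (blue), between the NK shADAR1 replicates (orange) and between the groups (black). The blue bars of NFKBIA (0.92) and TNFAIP3 (0.96) exceed every group difference, and black is the longest bar only for NFKB2 and RELB.

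Levels of different genes were compared in FPKM, the deposited values that account for transcript length. RELA had the highest mean over the 4 libraries, 59.4 FPKM, followed by NFKBIB at 58.3, NFKBIA at 38.1 and NFKB1 at 33.8 FPKM. Each of these overlapped the next over the 4 libraries, whereas RELA and NFKBIB lay above NFKB1 in every library. NFKB2, at 21.5 FPKM, lay below all values of NFKB1 and above all values of TNFAIP3. TNFAIP3 at 10.5, RELB at 9.18 and NFKBIE at 8.08 FPKM overlapped in turn. NFKBIZ at 4.44 and REL at 2.15 FPKM were the lowest and were separate from each other and from the rest.

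As a share of the summed FPKM of the 5 subunits, RELA took 50.6% and 40.7% in NK scramble libraries, against 52.9% and 44.3% in NK shADAR1 libraries. NFKB1 took 23.1% and 30.2% in NK scramble libraries, against 23.6% and 31.2% in NK shADAR1 libraries. For both genes the replicates of a group were further apart than the groups. NFKB2 had a share of 18.3% ± 1.12 (SD, n = 2) in NK scramble and 15.5% ± 2.79 in NK shADAR1 cells, and RELB of 8.10% ± 0.757 and 6.30% ± 1.31. The share of RELB was lower in both NK shADAR1 libraries (7.23% and 5.38%) than in both NK scramble libraries (7.56% and 8.63%), by a narrow margin, and that of NFKB2 overlapped. REL held 1.27% and 1.45% in NK scramble libraries, against 2.63% and 1.64% in NK shADAR1 libraries, the one share that was higher in both knockdown libraries. The level of REL itself was not, at 1.911 and 1.885 FPKM in NK scramble libraries, against 2.982 and 1.803 FPKM in NK shADAR1 libraries. No test was made of these shares, since with 2 libraries per group the smallest two-sided p of an exact permutation test is 0.333.

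**Figure D4:**
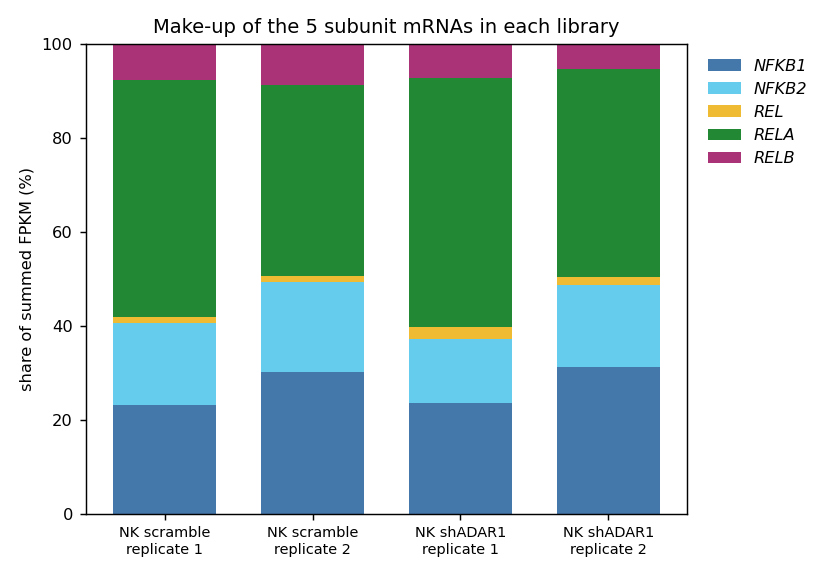
Share of each subunit in the summed FPKM of the 5 subunits (y axis, percent) in each of the 4 libraries (x axis), as stacked bars. RELA is the largest share in every library, from 40.7% to 52.9%, and bars of the same replicate number look more alike than bars of the same group.

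The ratio of RELB to RELA in FPKM was 0.150 and 0.212 in NK scramble libraries, against 0.137 and 0.121 in NK shADAR1 libraries, and that of NFKB2 to NFKB1 was 0.757 and 0.633 against 0.574 and 0.561. In both ratios the groups did not overlap. Each has RELB or NFKB2, the genes already found lower, as its numerator, so neither is a separate result. By CPM of single genes, 12.6% of all tested genes separated in the lower direction and 13.3% in the higher. The groups overlapped in every other ratio computed. The ratio of NFKB2 to RELB, for example, was 2.31 and 2.21 in NK scramble libraries, against 1.88 and 3.25 in NK shADAR1 libraries. The ratio of NFKB1 to RELA was 0.457 and 0.741 in NK scramble libraries, against 0.447 and 0.705 in NK shADAR1 libraries, which separated the replicate numbers and not the groups. Summed FPKM of NFKBIA, NFKBIB and NFKBIE was 0.815 and 0.861 times that of the subunits in NK scramble libraries, against 0.896 and 0.744 times in NK shADAR1 libraries, so the balance of inhibitor to subunit mRNA overlapped between groups. Of the ratios computed, NFKBIA to RELA was the least steady within a group, at 0.397 and 1.05 in NK scramble cells.

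The choice of unit mattered for some genes. In FPKM both NK shADAR1 libraries lay below both NK scramble libraries for 3 of the 10 genes, NFKB1, NFKB2 and RELB, against 11.6% of tested genes, an alternative chosen after the data were seen. NFKBIE and NFKBIZ thus separated only in CPM and NFKB1 only in FPKM. NFKBIZ was at 4.23 and 4.97 FPKM in NK scramble libraries, against 4.38 and 4.17 FPKM in NK shADAR1 libraries. The transcript length implied by its count and FPKM was 3401 and 3588 bases in NK scramble libraries, against 3077 and 3023 bases in NK shADAR1 libraries. For NFKBIE the implied length was 1920 and 2325 bases in NK scramble libraries, against 2175 and 2061 bases in NK shADAR1 libraries, while for NFKBIA it stayed between 1554 and 1556 bases. Such variation was common, since the implied length differed by over 1.05-fold between libraries for 5 of the 10 genes and for 51.9% of 9630 genes with at least 100 estimated counts in every library. Which transcripts were present was not measured in these values. GENCODE 29 gives 7 coding transcripts of NFKBIZ from 548 to 3923 bases, and 3 of NFKBIE from 561 to 2581 bases. For REL it gives 2, of 2398 and 11255 bases, and the implied length was 11038 to 11142 bases. The low FPKM and subunit share of REL rest on that length. Its group means were 21.2 CPM in NK scramble and 26.2 CPM in NK shADAR1 cells, above those of NFKBIE (19.2 and 14.6 CPM).

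The rest of the pathway was followed in 5 lists, and no gene of them passed the adjusted threshold with edgeR. Of 20 ligands and receptors 11 were tested, 9 with a lower value, and the median log2 fold change was -0.32. Only LTA, which encodes lymphotoxin alpha, had an unadjusted p under 0.05 in this list, at 78.9 and 59.4 CPM in NK scramble replicates, against 14.7 and 41.9 CPM in NK shADAR1 replicates. Both NK shADAR1 libraries were lower, replicate 1 the more so, and the log2 fold change of LTA was -1.29 ± 0.39 (SE, n = 2 per group). The NK shADAR1 replicates of LTA differed by more than that, 1.51 on the log2 scale, and its unadjusted p was over 0.05 with DESeq2. LTB, which encodes its membrane-bound partner lymphotoxin beta, had the highest mean FPKM of the list, and was at 145 and 172 CPM in NK scramble replicates, against 109 and 141 CPM in NK shADAR1 libraries, and had a log2 fold change of -0.34. The receptor of their heterotrimer is encoded by LTBR, named after its values were seen, which had 1, 0, 1 and 0 estimated counts in the 4 libraries and was not tested.

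The signaling machinery between receptor and IκB had medians near 0. All 23 adaptors and ubiquitin enzymes were tested, and 13 had lower and 10 higher values, with a median of -0.033. UBE2V1, a cofactor of the enzyme that builds Lys63-linked ubiquitin chains, had the highest mean FPKM and was at 226 and 265 CPM in NK scramble replicates, against 182 and 270 CPM in NK shADAR1 replicates, which overlapped. All 11 kinases and kinase partners were tested, and 8 had higher and 3 lower values, with a median of 0.10. Both NK shADAR1 libraries lay above both NK scramble libraries for 5 of them, CHUK, IKBKE, MAP3K7, TAB1 and TAB3, named after their values were seen, against 13.3% of tested genes, and 0 of the 11 reached an unadjusted p under 0.05 with edgeR. TAB2, an adaptor of the TAK1 kinase, had the highest mean FPKM and was at 100.0 and 87.1 CPM in NK scramble replicates, against 110 and 86.2 CPM in NK shADAR1 replicates.

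Among 15 other inhibitors 14 were tested, with a median of -0.018 and 0 at an unadjusted p under 0.05 with edgeR. TNIP1, which encodes a partner of A20, had the highest mean FPKM and was at 183 and 185 CPM in NK scramble replicates, against 133 and 195 CPM in NK shADAR1 replicates. Of 25 genes known as NF-κB targets 17 were tested, 12 with lower and 5 with higher values, and the median was -0.15. GADD45B, a stress-induced gene that acts on JNK signaling, had an unadjusted p under 0.05 and was at 40.5 and 47.1 CPM in NK scramble replicates, against 25.5 and 33.4 CPM in NK shADAR1 replicates. Its groups did not overlap, and its log2 fold change was -0.57 ± 0.22 (SE, n = 2 per group). CCL5, a chemokine of cytotoxic lymphocytes with the highest mean FPKM of the list, was at 974 and 1067 CPM in NK scramble replicates, against 1103 and 1170 CPM in NK shADAR1 replicates. The targets as a group were thus spread on both sides of 0.

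**Figure D5:**
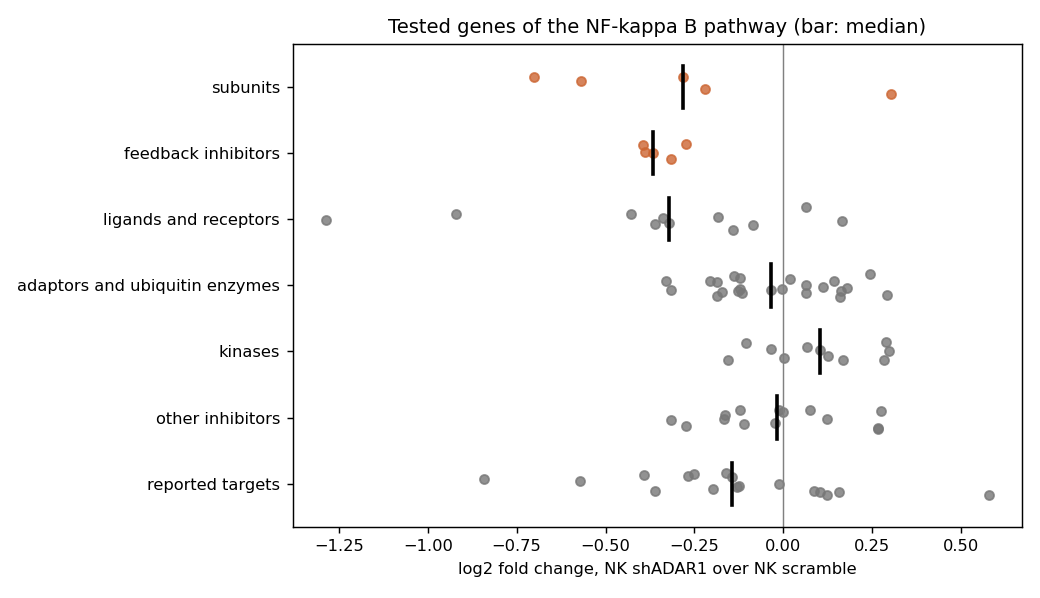
Log2 fold change of NK shADAR1 over NK scramble (x axis) of each tested gene, in 7 groups of the NF-κB pathway (y axis), with a bar at each median. The medians are -0.28 for the subunits, -0.37 for feedback inhibitors and -0.32 for ligands and receptors, the last being the value of low-count TNFRSF4. They lie below those of the reported targets (-0.15), adaptors (-0.033), kinases (0.10) and other inhibitors (-0.018).

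The libraries held 37881704 to 39960491 estimated counts each, so counting error was small for these genes, whose lowest estimated count was 486, for NFKBIZ. Log2 CPM correlated at r = 0.981 between the replicates of each group. The closest libraries of all, at r = 0.989, were NK scramble replicate 2 and NK shADAR1 replicate 2. Next came NK scramble replicate 1 and NK shADAR1 replicate 1, at r = 0.985. The targeted gene ADAR was at 655 and 682 CPM in NK scramble replicates, against 575 and 482 CPM in NK shADAR1 libraries, and had a log2 fold change of -0.34 ± 0.20 (SE, n = 2 per group; edgeR adjusted p 1.00). All 13 NK cell markers were detected at a mean of at least 1 FPKM. Of 13 markers of other cell types 3 were, led by TRAC, a T cell receptor constant gene also transcribed in some NK lines, at 101 to 140 CPM, and 3 had no counts. The summed FPKM of the other-type markers was 108 and 126 in NK scramble libraries, against 135 and 143 in NK shADAR1 libraries. Nearly all of it was TRAC, at 104 and 123 FPKM in NK scramble libraries, against 129 and 139 FPKM in NK shADAR1 libraries. Of 10 interferon-induced genes all 10 had lower values in NK shADAR1 cells, against 50% of all tested genes. With edgeR 8 of them had an unadjusted p under 0.05, against 0.779% of tested genes that were lower by that criterion. Earlier results of these data were known when this list was chosen, so these counts are a description and not a separate test. The summed FPKM of these interferon-induced genes was 764 and 752 in NK scramble libraries, against 462 and 174 in NK shADAR1 libraries. The summed FPKM of the subunits was 151 and 130 in NK scramble libraries, against 113 and 110 in NK shADAR1 libraries. The part of other cell types or of interferon-induced genes in the values above was not tested, and in bulk RNA fewer cells with a transcript and less transcript per cell cannot be told apart.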

How the data were processed

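RNA-seq of 4 NK-92 libraries was analysed. Estimated counts, not normalized and sometimes fractional, were deposited for each gene. The deposited FPKM values, also made by the authors, account for length and depth. Submitters' notes name fastp 0.18.0, and the aligner, counter, build and annotation are not given in the sources used here. Of 20323 identifiers 20301 matched a symbol. Counts were rounded, filtered with filterByExpr (minimum count 10), scaled by TMM and tested without covariates by the quasi-likelihood test of edgeR 4.0.16 (R 4.3.3) over 11810 genes. The threshold was a Benjamini-Hochberg adjusted p under 0.05 and a 1.5-fold change. The SE is the log2 fold change divided by the square root of F. FPKM served for comparing genes. Alternatives used DESeq2 1.42.0, RLE and upper quartile scaling, other count filters, limma 3.58.1 on log2 FPKM (at least 1 FPKM on average), a replicate block and leaving out each library. Scripts were tested on simulated data. Members and gene lists were chosen with earlier results of these data known. Of the lists, genes at an unadjusted p under 0.05 and the gene of highest mean FPKM are named. The 2 libraries of a group are described as biological replicates, but no source used here says that they came from separate transductions. The p-values and SE therefore rest on the spread between these libraries, with the variance of each gene drawn toward that of all tested genes. No sequencing batch is given. Implied length is the length at which a gene's count and library total give its FPKM.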

Additional observations from a re-analysis of the deposited data

How the results depend on the processing

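Genes past the threshold numbered 0 with all 4 libraries, under RLE and upper quartile scaling, other count filters, DESeq2 and limma on log2 FPKM. They numbered 13 with the replicate block and 1 to 47 with 1 library left out, and 0 of the 10 NF-κB genes was among them in any of these fits. Same-numbered libraries deviated together from their group means (correlation 0.31 over all tested genes), but the labels do not tie a number to a batch. With edgeR and the replicate block, 681 of all tested genes had an unadjusted p under 0.05, beside 293 without it. The smallest edgeR adjusted p of the 10 genes with the block was 0.263. Of the 10 genes, 2 had an unadjusted p under 0.05 with edgeR, both with and without the block. With 1 library left out, the median log2 fold change of the 10 genes lay between -0.44 and -0.29. Most of the alternatives refit the same 4 libraries, which leaves little room for a change of direction. Of 120 values of single genes under the alternatives, 117 kept their direction. The others were the log2 fold changes of REL (-0.045 to 0.58 with 1 library left out, -0.045 without NK shADAR1 replicate 1), NFKBIA (-0.78 to 0.14, 0.14 without NK scramble replicate 2) and TNFAIP3 (-0.68 to 0.28, 0.28 without NK scramble replicate 2). NFKBIZ moved from -0.32 to -0.084 with limma on log2(FPKM + 1). With 1 library left out, the lone library is assumed to vary like the other group. The cause of these changes was not tested.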

Other observations

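NFKBIA and TNFAIP3 were more than 1.5-fold higher in NK scramble replicate 2 than in replicate 1, as were 7.46% of all tested genes. Of the 76 tested genes of the 5 pathway lists 7, or 9.21%, had the same gap, close to the share of all genes, and 3 had a gap of that size in the other direction. BIRC3 and CCL4 are shown from the 7 and were picked after their values were seen. BIRC3, which encodes the ubiquitin ligase cIAP2, was at 35.0 and 59.4 CPM in NK scramble replicates, against 32.7 and 43.1 CPM in NK shADAR1 replicates. CCL4, a chemokine gene, was at 65.6 and 195 CPM in NK scramble replicates, against 110 and 125 CPM in NK shADAR1 replicates. In both, the NK scramble libraries were further apart than the group means. The ratio of TNFAIP3 to NFKBIA was 0.256, 0.268, 0.251 and 0.340 in FPKM over NK scramble replicates 1 and 2 and NK shADAR1 replicates 1 and 2.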
